A study of Mus musculus with 7 samples.

Results

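The genes described here are the 10 core factors of V(D)J recombination and of the end joining that completes it, chosen by name: Rag1, Rag2, Dntt, Prkdc, Dclre1c, Xrcc5, Xrcc6, Lig4, Xrcc4 and Nhej1. All 10 were found by symbol among the 16734 genes of the table, and all 10 had a mean of at least 1 RPKM, the level above which a gene was tested. RPKM counts reads over the exons of a gene, scaled to exon length and to the number of mapped reads, so levels of different genes can be compared per length. The 7 libraries were made from polyadenylated RNA of unsorted cell suspensions of the whole thymus, taken at 4 weeks of age. They came from wild type C57BL/6 mice (3 libraries, replicates 1, 2A and 2B), Ikaros ZnF1-/- mice (2 libraries, replicates 1 and 2) and Ikaros ZnF4-/- mice (2 libraries, replicates 1 and 2). The mutants are homozygous for a form of Ikaros, the lymphoid transcription factor encoded by Ikzf1, that lacks the first or the fourth zinc finger of its DNA-binding domain. The labels name no further allele or treatment, restrict neither mutation to a cell type and do not give the strain of the mutants. They also do not say that replicates are separate animals, so the spread behind each p may be technical in part.

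V(D)J recombination assembles antigen receptor genes in developing lymphocytes. RAG1 and RAG2 together cut DNA at the recombination signals that flank the gene segments. Ku, DNA-PKcs and Artemis then hold and open the broken ends, terminal transferase (TdT) adds untemplated nucleotides, and DNA ligase IV with XRCC4 and XLF joins them. In the thymus the cutting and joining takes place in immature thymocytes, first at the double-negative stage (no CD4 or CD8) and then at the double-positive stage (both).

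Replicate 1 of each group was read as 76 bp and replicates 2, 2A and 2B as 50 bp on another instrument, so each comparison is also given within a replicate number. The same split held for sex. Xist was at 90.6 to 109 RPKM in the 3 libraries numbered 1 and at 0.01 to 0.03 RPKM in the other 4, whereas Y-linked Ddx3y was at 13.2 to 17.4 RPKM in those 4. Read length and sex therefore cannot be told apart here. Depth was not stated. The steps that whole reads leave in low RPKM values pointed, for the libraries numbered 1, to 20149000 reads for wild type, 14304000 for ZnF1-/- and 6307000 for ZnF4-/-. No depth stood out in the 50 bp libraries. At the best-fit depths 59.6%, 63.6% and 67.9% of the low values in these groups lay on steps, where 26.9%, 24.8% and 16.9% would by chance. Many low values thus lay off the steps, and the depths and read counts are rough estimates. At these best-fit depths the ZnF4-/- replicate 1 value of Nhej1, the shortest transcript of the set, rested on about 20 reads, a counting error of 22.6%, that of Lig4 on about 509 reads (4.43%) and that of Rag1 on about 27094 reads. Counting error covers the reads only, and not the spread between animals. The labelled tissue matched its markers: Cd4 was at 302 to 500 RPKM and Cd8a at 386 to 636 RPKM over the 7 libraries.

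The gene that differed most was Lig4, which encodes DNA ligase IV, the enzyme that seals the broken ends. It was lower in ZnF4-/- than in wild type within both replicate numbers, at 53.2% of the wild type value in number 1 and 59.0% of the mean of 2A and 2B in number 2. Rag1 and Rag2 were lower by a smaller margin, Dntt was highest in ZnF1-/-, and the levels of Prkdc, Xrcc5 and Xrcc4 overlapped between wild type and both mutants. Differences were tested with limma on log2(RPKM + 0.5), over all 10498 tested genes with Benjamini-Hochberg adjustment. In the fit of the 3 groups without a block, 0 of the 10 genes passed an adjusted p of 0.05 in any comparison, where 2.54% of all tested genes passed for ZnF4-/- and 0.0857% for ZnF1-/- when each was set against wild type, and 2.34% passed between the mutants. At an unadjusted p under 0.05, 2 of the 10 were lower in ZnF4-/- than in wild type (3.11% of all tested genes), 1 was lower in ZnF1-/- than in wild type (1.72%) and 0 differed between the mutants (9.17% in either direction). With the replicate number as a block, Lig4 alone of the 10 fell in ZnF4-/- against wild type, where 2.12% of all tested genes fell. In that blocked fit 0 of the 10 passed in ZnF1-/- against wild type (0.876% of all tested genes) and 0 between the mutants (7.29%).

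**Figure D1:**
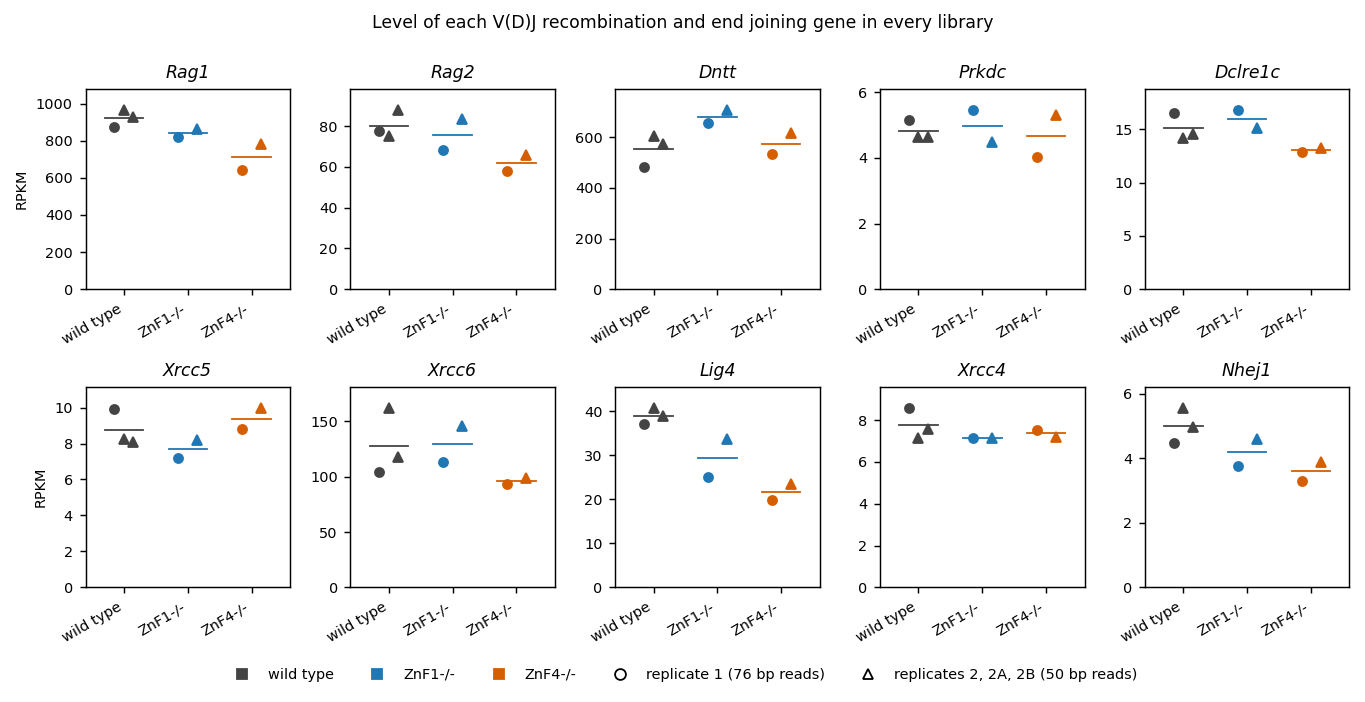
Level of each gene in RPKM (vertical axis, starting at 0) in the 7 libraries. Circles are replicates numbered 1, triangles those numbered 2, 2A and 2B, and lines are group means. Lig4 lies at 37.1 to 40.7 RPKM in wild type, 25.2 and 33.7 RPKM in ZnF1-/- and 19.8 and 23.5 RPKM in ZnF4-/-, with no overlap between groups.

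The wild type thymus held the transcripts of this pathway at very unequal levels. Rag1 averaged 922 ± 45.2 RPKM (SD, n = 3) and ranked 4 to 6 among all 16734 genes in the 3 wild type libraries. Dntt followed at 553 ± 61.7 RPKM, then Xrcc6 at 128 ± 30.2, Rag2 at 80.1 ± 6.87, Lig4 at 38.9 ± 1.79 and Dclre1c at 15.1 ± 1.27 RPKM. Each of these lay apart from its neighbours in that order in all 3 wild type libraries. The lowest were Xrcc5 at 8.74 ± 1.01, Xrcc4 at 7.77 ± 0.728, Nhej1 at 4.99 ± 0.541 and Prkdc at 4.82 ± 0.303 RPKM. Xrcc5 overlapped Xrcc4, and Nhej1 overlapped Prkdc. In both mutants the order of the first 8 genes was the same as in wild type, and Prkdc stood before Nhej1. The lymphoid genes Rag1 and Dntt were thus the most abundant, and those shared with general DNA repair were lower than both. Rag2, also a lymphoid gene, lay below the repair gene Xrcc6 in every group.

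Rag1 and Rag2 encode the subunits of the recombinase and lie beside each other on chromosome 2, transcribed towards each other with 5753 bases between them. In the annotation of mouse build NCBIM37 (mm9), Rag1 runs from 101478439 to 101489658 on the minus strand and Rag2 from 101464875 to 101472685 on the plus strand. Another gene of this locus, B230118H07Rik (Iftap), shares 1.21% of the exon bases of Rag1 and 6.08% of those of Rag2. Its own level was 3.65 to 6.39 RPKM, and since no strand is stated its reads cannot be told from theirs in the shared stretch.

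Rag1 was at 875, 965 and 926 RPKM in wild type replicates 1, 2A and 2B, at 822 and 865 RPKM in ZnF1-/- replicates 1 and 2, and at 644 and 784 RPKM in ZnF4-/- replicates 1 and 2. Both mutants lay wholly below wild type, ZnF4-/- further than ZnF1-/-. In ZnF4-/- the level was 73.6% of wild type within number 1 and 82.9% of the mean of 2A and 2B within number 2. The log2 fold change was -0.38 ± 0.20 (SE; limma adjusted p = 0.708, blocked adjusted p = 0.160) in ZnF4-/- and -0.13 ± 0.20 (adjusted p = 1.00) in ZnF1-/-, so neither passed. With quantile normalization the ZnF1-/- value was 0.016. Rag1 ranked 4 to 7 among all genes in each of the 7 libraries.

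Rag2 was at 77.5, 75.0 and 87.9 RPKM in wild type replicates 1, 2A and 2B, at 68.1 and 83.4 RPKM in ZnF1-/-, and at 58.1 and 66.0 RPKM in ZnF4-/-. The ZnF4-/- libraries lay below all others, and the ZnF1-/- libraries overlapped wild type. The log2 fold change was -0.37 ± 0.17 (limma adjusted p = 0.571, blocked adjusted p = 0.114) in ZnF4-/- and -0.09 ± 0.17 (adjusted p = 1.00) in ZnF1-/-. Rag1 exceeded Rag2 by a factor of 10.4 to 12.9 in all 7 libraries, and the 3 groups overlapped in this ratio. The neighbouring gene Traf6, a signalling adaptor, was at 20.8 ± 1.16 RPKM in wild type and 20.8 ± 2.35 RPKM in ZnF4-/- (log2 fold change -0.003 ± 0.14), and B230118H07Rik was at 4.46 ± 0.707 and 5.53 ± 1.22 RPKM (0.28 ± 0.20). Neither of these neighbours passed in any comparison.

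By the root mean square difference of log2 deviations from a gene's own mean over the 7 libraries, the genes most like Rag1 were Tapt1 (0.045), Rmnd5a (0.045) and Dera (0.047), where the median over all other tested genes was 0.242. For Rag2 they were Zfp238 (0.060), Med21 (0.062) and Uba3 (0.065), with a median of 0.253. Rag1 and Rag2 differed from each other by 0.102, and Nhej1 was closer to Rag1 than Rag2 was, at 0.079. The libraries share read length and sex within a number, so part of any likeness is common to many genes.

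Dntt encodes terminal transferase, the polymerase that adds nucleotides without a template at the junctions (chromosome 19, 41103765 to 41134013, plus strand, NCBIM37). It was at 484, 603 and 572 RPKM in wild type replicates 1, 2A and 2B, at 655 and 707 RPKM in ZnF1-/-, and at 532 and 615 RPKM in ZnF4-/-. The ZnF1-/- libraries lay above all others, and ZnF4-/- overlapped wild type. Within number 1 the ZnF1-/- level was 135% of wild type, and within number 2 it was 120% of the mean of 2A and 2B. The log2 fold change was 0.31 ± 0.20 (limma adjusted p = 1.00, blocked 0.34 ± 0.12 with adjusted p = 0.365) in ZnF1-/- and 0.06 ± 0.20 (adjusted p = 0.991) in ZnF4-/-, and neither passed. The ZnF4-/- value changed sign without wild type replicate 1 (-0.04) and without ZnF4-/- replicate 2 (-0.05).

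Set against Rag1 within the same library, Dntt stood higher in both mutants. The ratio of Dntt to Rag1 was 0.553 to 0.624 in wild type, 0.797 and 0.817 in ZnF1-/-, and 0.785 and 0.825 in ZnF4-/-, with no overlap between wild type and either mutant. The ratio was chosen with the values in view, and no test was made of it. The genes most like Dntt over the 7 libraries were Epb4.1l2 (0.033), Camk1g (0.057) and Drosha (0.062), against a median of 0.237. Polm, a template-dependent relative of terminal transferase that fills gaps in end joining, went the other way in ZnF1-/-. It was at 5.07, 6.54 and 6.24 RPKM in wild type and at 3.89 and 4.08 RPKM in ZnF1-/-, with no overlap (log2 fold change -0.52 ± 0.15, limma adjusted p = 0.750, blocked 0.160), and was named after its values were seen.

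**Figure D2:**
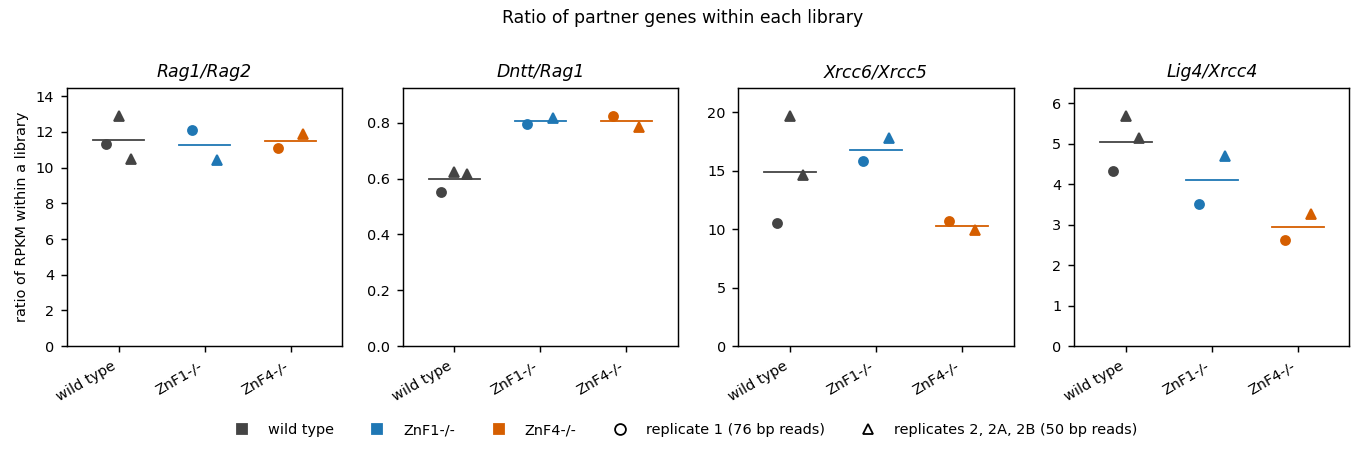
Ratio of RPKM of 2 genes within each library (vertical axis, starting at 0) for 4 pairs; symbols as in the plot of levels, lines are group means. Rag1/Rag2 overlaps between all groups at 10.4 to 12.9, Dntt/Rag1 is 0.553 to 0.624 in wild type and 0.785 to 0.825 in the mutants.

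The proteins that hold and open the ends are Ku, made of the products of Xrcc5 (Ku80) and Xrcc6 (Ku70), the kinase DNA-PKcs from Prkdc and the nuclease Artemis from Dclre1c. Although Ku is a heterodimer, its messages were far from equal. Xrcc6 (chromosome 15, 81818265 to 81870515, plus strand) exceeded Xrcc5 (chromosome 1, 72353995 to 72441526, plus strand) per length by a factor of 9.91 to 19.7 over the 7 libraries. Xrcc6 was at 104, 162 and 118 RPKM in wild type replicates 1, 2A and 2B, at 113 and 146 RPKM in ZnF1-/-, and at 93.7 and 98.7 RPKM in ZnF4-/-. The ZnF4-/- libraries lay below all others, by a log2 fold change of -0.39 ± 0.23 against wild type (limma adjusted p = 0.763, blocked 0.262), and wild type itself was spread widely, with 2A highest. In ZnF1-/- the value was 0.03 ± 0.23 and it changed sign when single libraries were left out, over a range of -0.15 to 0.21. Exons of Pppde2, a gene at 75.3 to 115 RPKM on the other strand, share 344 bases with those of Xrcc6, 7.69% of its annotated exon bases. The transcript length used for the RPKM of Xrcc6 is 2126 bases, so the overlap can be a larger part of what was measured.

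Xrcc5 was at 9.91, 8.23 and 8.09 RPKM in wild type, at 7.17 and 8.18 RPKM in ZnF1-/- and at 8.79 and 9.96 RPKM in ZnF4-/-. Both mutants overlapped wild type, and ZnF4-/- lay above ZnF1-/- (log2 fold change 0.27 ± 0.17, limma adjusted p = 0.845). Against wild type the direction in ZnF4-/- differed between the numbers, at 88.7% of wild type in number 1 and 122% in number 2.

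Prkdc (chromosome 16, 15637959 to 15842332, plus strand) has the longest transcript of the set, at 12760 bases. It was at 5.17, 4.64 and 4.65 RPKM in wild type, at 5.46 and 4.48 RPKM in ZnF1-/- and at 4.03 and 5.31 RPKM in ZnF4-/-. The lowest and nearly the highest value thus came from the same group, and the log2 fold changes against wild type were 0.04 ± 0.17 and -0.05 ± 0.17 (limma adjusted p = 1.00 and 0.988). Dclre1c (chromosome 2, 3341403 to 3381402, plus strand), whose exon bases are shared to 3.83% with Suv39h2 on the other strand, was at 16.6, 14.2 and 14.6 RPKM in wild type, at 16.8 and 15.1 RPKM in ZnF1-/- and at 12.9 and 13.3 RPKM in ZnF4-/-. Its ZnF4-/- libraries lay below all others, but the means differed by less than the highest and lowest wild type libraries did (log2 fold change -0.20 ± 0.14, limma adjusted p = 0.839, blocked 0.269).

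The ligation step uses DNA ligase IV from Lig4 (chromosome 8, 9970020 to 9977686, minus strand), its stabilising partner XRCC4 from Xrcc4 (chromosome 13, 89913632 to 90229213, minus strand) and XLF, which aligns the ends, from Nhej1 (chromosome 1, 75013713 to 75093213, minus strand). Lig4 was at 37.1, 40.7 and 39.0 RPKM in wild type replicates 1, 2A and 2B, at 25.2 and 33.7 RPKM in ZnF1-/- replicates 1 and 2, and at 19.8 and 23.5 RPKM in ZnF4-/- replicates 1 and 2. The groups did not overlap, and within each number wild type was highest and ZnF4-/- lowest. No exon of Lig4 overlapped another annotated gene. Whether fewer cells that express a gene or less RNA per cell underlies a lower level cannot be told apart in whole tissue, for Lig4 as for the other genes.

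For ZnF4-/- against wild type the log2 fold change of Lig4 was -0.84 ± 0.18, with a limma adjusted p of 0.0631 that did not pass. Blocked on the replicate number it fell by 0.80 on the log2 scale (SE 0.10, adjusted p = 0.00251), lower in 2 of 2 numbers. This blocked call held when any of the 7 libraries was left out, with values from -0.84 to -0.71 and adjusted p from 0.00396 to 0.0158. It passed without the block too after the libraries were centred on a common median (-0.83, adjusted p = 0.0119) or quantile normalized (-0.76, adjusted p = 0.0208). Averaging wild type 2A and 2B gave -0.82 with an adjusted p of 0.233.

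For ZnF1-/- against wild type Lig4 had a log2 fold change of -0.41 ± 0.18 (limma adjusted p = 1.00; blocked -0.37 ± 0.10, adjusted p = 0.203). The level was 67.8% of wild type in number 1 and 84.6% of the mean of 2A and 2B in number 2, and the difference did not pass. Between the mutants the log2 difference was -0.43 ± 0.19 (adjusted p = 0.591, blocked 0.0630), which did not pass either. The comparisons with wild type share the same 3 wild type libraries.

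Xrcc4 was at 8.57, 7.15 and 7.58 RPKM in wild type, at 7.17 and 7.16 RPKM in ZnF1-/- and at 7.52 and 7.21 RPKM in ZnF4-/-. Relative to their level these were the closest values of the 10 genes, and both mutants lay at or near the lowest wild type library. The log2 fold change in ZnF4-/- was -0.07 ± 0.14 (limma adjusted p = 0.981). The ratio of Lig4 to Xrcc4, whose products form 1 complex, was 4.33 to 5.69 in wild type, 3.51 and 4.70 in ZnF1-/- and 2.63 and 3.26 in ZnF4-/-. The ZnF4-/- ratios lay below all others, and those of ZnF1-/- overlapped wild type. Exons of Tmem167 share 2.66% of the exon bases of Xrcc4.

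Nhej1 was at 4.47, 5.55 and 4.96 RPKM in wild type, at 3.76 and 4.61 RPKM in ZnF1-/- and at 3.30 and 3.90 RPKM in ZnF4-/-. The ZnF4-/- libraries lay below wild type and overlapped ZnF1-/-. The log2 fold change was -0.42 ± 0.17 in ZnF4-/- (limma adjusted p = 0.432, blocked 0.0994) and -0.23 ± 0.17 in ZnF1-/- (adjusted p = 1.00), and neither passed. After Lig4, Nhej1 had the smallest p of the 10 genes in ZnF4-/- against wild type. Its counting error in ZnF4-/- replicate 1, given above, is close to the size of its difference from wild type.

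**Figure D3:**
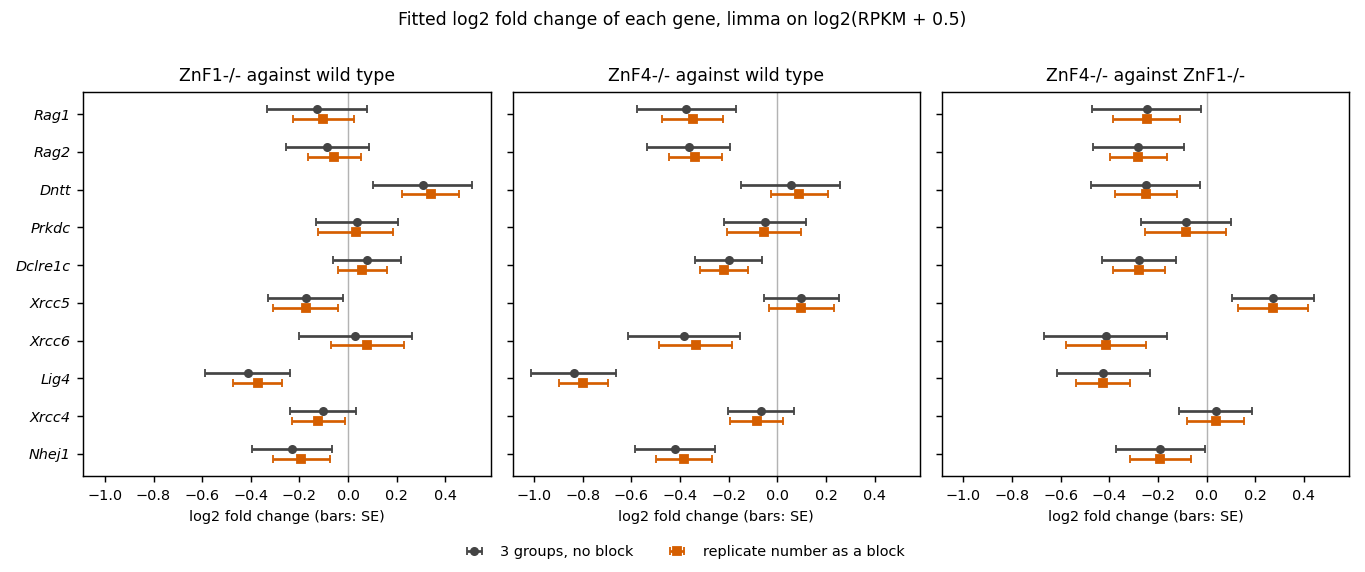
Fitted log2 fold change of each gene (horizontal axis; bars are SE) in 3 comparisons, without a block (circles) and with the replicate number as a block (squares). Lig4 in ZnF4-/- against wild type lies farthest from 0, at -0.84 without and -0.80 with the block.

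Counted over the 10 genes, the ZnF4-/- libraries lay below every wild type library for 6 (Rag1, Rag2, Dclre1c, Xrcc6, Lig4 and Nhej1), where this held for 10.6% of all tested genes, and above every wild type library for 0, against 12.5%. The median log2 fold change of the 10 in ZnF4-/- was -0.28, beside -0.05 for all tested genes. ZnF1-/- lay below wild type for 2 (Rag1 and Lig4; 6.99% of all tested genes) and above it for 1 (Dntt; 6.85%), with a median of -0.10 beside -0.02. Against ZnF1-/-, ZnF4-/- was lower without overlap for 6 (16.8%) and higher for 2, Xrcc5 and Xrcc4 (15.2%). The genes were chosen as a pathway and share their libraries, so these counts describe the set and were not tested as one.

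Lig4 passed with the replicate block and not in the main fit without it. Promoter windows are shown for Lig4 and for Rag1 and Dntt, the most abundant of the set. Each is the 250 bases before an annotated RefSeq start in build GRCm38.p6, on the strand of the gene and 5′ to 3′. Capitals mark TGGGAA, which holds the GGGA core that Ikaros binds, read on either strand. Lig4 has 2 annotated starts, given as A and B.
Lig4 start A, chr8:9977681-9977930, minus strand: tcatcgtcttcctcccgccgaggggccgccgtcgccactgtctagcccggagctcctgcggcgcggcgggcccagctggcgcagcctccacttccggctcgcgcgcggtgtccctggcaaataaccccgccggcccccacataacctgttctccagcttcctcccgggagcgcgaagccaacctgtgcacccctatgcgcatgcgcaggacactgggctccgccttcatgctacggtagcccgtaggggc
Lig4 start B, chr8:9976312-9976561, minus strand: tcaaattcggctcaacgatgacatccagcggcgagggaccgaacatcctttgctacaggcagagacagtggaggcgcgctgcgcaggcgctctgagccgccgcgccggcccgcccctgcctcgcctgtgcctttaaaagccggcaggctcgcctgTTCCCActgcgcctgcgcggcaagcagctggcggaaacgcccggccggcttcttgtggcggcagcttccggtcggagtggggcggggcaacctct
Rag1, chr2:101649533-101649782, minus strand: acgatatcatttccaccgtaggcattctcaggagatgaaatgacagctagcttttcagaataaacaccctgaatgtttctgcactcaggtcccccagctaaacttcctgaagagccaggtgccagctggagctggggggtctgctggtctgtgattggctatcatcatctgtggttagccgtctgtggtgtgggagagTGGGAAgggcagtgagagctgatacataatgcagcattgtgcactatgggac
Dntt, chr19:41029025-41029274, plus strand: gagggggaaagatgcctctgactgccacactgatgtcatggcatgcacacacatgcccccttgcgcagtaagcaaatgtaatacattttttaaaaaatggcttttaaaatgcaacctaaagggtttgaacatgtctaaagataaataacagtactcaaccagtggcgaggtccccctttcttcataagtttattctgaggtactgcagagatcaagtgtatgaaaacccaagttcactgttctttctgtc
The Lig4 window B holds the motif on the opposite strand, read as TTCCCA, its first base 95 bases before the start, and the Rag1 window holds it on the strand of the gene, 52 bases before the start. RefSeq windows were found for 9 of the 10 genes, 10 windows in all, and 2 of the 10 windows held TGGGAA, where 21.6% of all 32851 windows did. The E-box CANNTG, the site type of E proteins, was in 9 of the 10 windows and in 66.2% of all windows. The motifs can overlap where TG is followed by GGAA. A match is a run of letters and not a measured site, and these data hold no binding measurement.

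Few other repair genes differed. Of 15 other end joining and end processing genes, 0 passed by limma in any comparison, with or without the block, and in ZnF4-/- against wild type 1 was higher (7.01% of all tested genes) and 0 were lower at an unadjusted p under 0.05. That gene was Poll, of the same polymerase family as Dntt, whose level was 1.91 ± 0.686 RPKM where wild type had 1.01 ± 0.331 (limma adjusted p = 0.466). It was at 2.39 and 1.42 RPKM in ZnF4-/- replicates 1 and 2, and at 0.65, 1.30 and 1.08 RPKM in wild type replicates 1, 2A and 2B. These values lie near the filter of 1 RPKM, and within number 2 the groups were close. The next by p was Aplf, an end joining scaffold, at 2.27 ± 0.997 against 3.27 ± 0.516 RPKM (adjusted p = 0.693). The list median was -0.11 in ZnF4-/- and 0.03 in ZnF1-/-.

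Of 15 genes of break signalling and end protection, such as Atm and Trp53bp1, 0 passed in any comparison with or without the block, and 0 had an unadjusted p under 0.05 against wild type in either mutant (median 0.07 in ZnF4-/-, -0.01 in ZnF1-/-). The smallest p values in ZnF4-/- were those of the ubiquitin ligase gene Rnf168, at 12.6 against 10.3 RPKM, and of Nbn, of the break-sensing MRN complex, at 8.34 against 6.56 RPKM (adjusted p = 0.634 and 0.655). Of 15 genes of homologous recombination, the other main repair route for such breaks, 0 passed likewise, with medians of -0.10 and -0.04. There Rad51c was at 2.00 against 2.53 RPKM and Rad52 at 11.2 against 13.2 RPKM (adjusted p = 0.706 and 0.835).

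Cofactors and transcriptional regulators of the Rag genes formed a list of 13, of which 0 passed without the block in any comparison. With the block 2 rose and 1 fell in ZnF4-/- against wild type, where 6.10% of all tested genes rose and 2.12% fell. Ikzf1 itself rose from 162 ± 18.0 RPKM in wild type to 248 ± 13.4 in ZnF4-/- (blocked adjusted p = 0.00737; 0.198 without the block). Foxo1, an activator of Rag transcription, rose too, from 16.7 ± 0.456 to 22.4 ± 0.969 RPKM (blocked adjusted p = 0.0284; 0.239 without). Myb, a transcription factor of immature thymocytes, fell from 222 ± 26.6 to 147 ± 1.24 RPKM (blocked adjusted p = 0.0243; 0.264 without). In ZnF1-/- 0 of the 13 passed with the block, and between the mutants Foxo1 alone did (adjusted p = 0.0381). Rag1 and Rag2, which passed in neither fit, had lower values in ZnF4-/- where Foxo1 was higher and Myb lower. A link between these differences was not tested.

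Genes of the stages at which recombination occurs were examined beside Lig4. Of 10 genes of the double-positive stage, 9 had lower values in ZnF4-/- than in wild type, where 59.0% of all tested genes did. Of the 10, 0 passed without the block and 3 fell with it (2.12% of all tested genes), among them Ccr9, which encodes a chemokine receptor, and Cd8a. Ccr9 was at 328, 287 and 333 RPKM in wild type and at 172 and 208 RPKM in ZnF4-/- (log2 fold change -0.74 ± 0.18, limma adjusted p = 0.120, blocked 0.0110). Cd8a was at 391 ± 7.60 RPKM against 565 ± 59.1 (blocked adjusted p = 0.0479). The summed level of the 10 genes was 2450 to 3130 RPKM in wild type, 2560 to 2940 in ZnF1-/- and 1850 to 2250 in ZnF4-/-, so ZnF4-/- lay below the rest. The list median in ZnF4-/- was -0.37, close to the values of Rag1 and Rag2 and nearer to 0 than that of Lig4. The part of a changed stage composition in the values of the recombination genes was not tested.

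**Figure D4:**
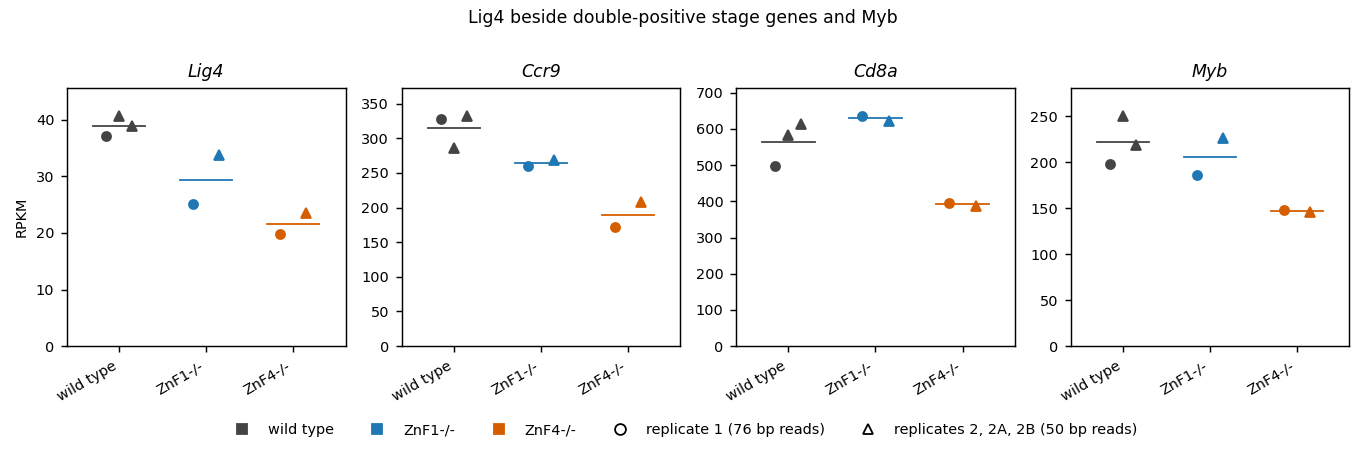
RPKM of Lig4, of the double-positive stage genes Ccr9 and Cd8a, and of Myb in every library (vertical axes start at 0; symbols as in the plot of levels, lines are group means). All 4 lie lower in ZnF4-/- than in every wild type and ZnF1-/- library, and Cd8a is higher in ZnF1-/-, at 623 and 636 RPKM, than in wild type, at 499 to 613 RPKM.

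Of 10 genes of the double-negative and pre-TCR stages, 8 were tested (Erg and Lmo2 were below 1 RPKM in all libraries). In ZnF4-/- 7 of the 8 had higher values than in wild type, where 41.0% of all tested genes did, and 1, the stem cell factor receptor gene Kit, rose from 2.14 ± 0.153 to 4.41 ± 0.403 RPKM (log2 fold change 0.90 ± 0.15, limma adjusted p = 0.0267), where 2.24% of all tested genes rose. With the block 3 rose, where 6.10% of all tested genes rose. They were Kit, the Notch receptor gene Notch1 and the Notch target Dtx1. Notch1 was at 87.8 ± 7.40 against 49.1 ± 14.3 RPKM (limma blocked adjusted p = 0.00871, and 0.356 without the block). Dtx1 was at 16.1 ± 3.88 against 7.40 ± 2.63 RPKM (blocked 0.0455, and 0.326 without). Another Notch target, Hes1, did not pass in either fit (adjusted p = 0.320, blocked 0.117). Il2ra, the gene of the CD25 chain that marks double-negative cells, had the opposite sign and did not pass, at 15.1 to 17.2 RPKM in wild type and at 13.7 and 9.72 RPKM in ZnF4-/- (log2 fold change -0.46 ± 0.22, adjusted p = 0.572, blocked 0.221). The summed level of this list was 93.9 to 146 RPKM in wild type, 85.9 to 133 in ZnF1-/- and 176 to 179 in ZnF4-/-. Another list held 8 genes typical of single-positive thymocytes and their egress, cells in which Rag expression has ended. Of the 8, 1 rose in ZnF4-/- without the block (2.24% of all tested genes). With the block 4 rose (S1pr1, Ccr7, Il7r and Ms4a6b), where 6.10% of all tested genes did. S1pr1, the receptor that guides cells out of the thymus, was at 23.6 ± 3.84 against 11.1 ± 1.25 RPKM (adjusted p = 0.0283), and the chemokine receptor gene Ccr7 at 58.0 ± 17.4 against 29.5 ± 6.58 RPKM (adjusted p = 0.182, blocked 0.000573). The summed level of that list was 234 to 312 RPKM in ZnF4-/- against 189 to 222 in wild type.

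Markers of other cells were low or also moved. Pro-B and pre-B cells express the Rag genes and Dntt too, but the B lineage genes Pax5, Ebf1, Igll1 and Vpreb1 were below 1 RPKM in all 7 libraries. The 8 B lineage markers summed to 15.5 to 36.2 RPKM, of which Cd79b made up most. Between the mutants Cd79a was higher and Cd79b was lower in ZnF4-/- (adjusted p = 0.0148 and 0.0189). All 6 myeloid markers had higher values in ZnF4-/- than in wild type (41.0% of all tested genes), with a sum of 83.6 to 113 RPKM against 46.1 to 66.9, and 1, C1qa, rose with the block, where 6.10% of all tested genes rose (adjusted p = 0.0230; 0.464 without). The 4 erythroid markers summed to 48.5 to 62.4 RPKM in ZnF4-/- against 12.2 to 31.8, with Hbb-b1 at 44.1 against 15.4 RPKM (blocked adjusted p = 0.00902; 0.270 without). Of 6 thymic epithelial markers, Epcam alone was tested, at 2.14 RPKM in ZnF4-/- and 2.44 RPKM in wild type, and Krt8 and Foxn1 were at 0 in at least 1 library.

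Proliferation genes, which tend to follow dividing double-negative cells and early double-positive cells, had a summed level of 604 and 642 RPKM in ZnF4-/-, below the 701 to 719 RPKM of wild type and the 701 to 710 RPKM of ZnF1-/-. Of the 12, 0 passed by limma in ZnF4-/- against wild type without the block (2.54% of all tested genes). At an unadjusted p under 0.05, 0 were higher (7.01% of all tested genes) and 0 were lower (3.11%). With the block 1, Pcna, fell, where 2.12% of all tested genes fell (blocked log2 fold change -0.58, limma adjusted p = 0.00689, and 0.891 without the block). The replication clamp encoded by Pcna also serves repair. The part of these other cells and of proliferation in the values of the recombination genes was not tested.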

How the data were processed

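RNA of whole thymus was sequenced from 7 samples in 3 groups. Per the labels and the series design text, the authors aligned reads with TopHat to mouse build mm9, counted exonic reads per RefSeq gene in SeqMonk, and deposited RPKM; bedtools is also named in the submitters' processing notes. Versions, strand and depth are not given in the sources used here. Transcript lengths were taken from the deposited table. Coordinates are from GENCODE vM1 on NCBIM37, which is mm9, and promoter windows are RefSeq's on GRCm38.p6. Exon overlaps are given as a percentage of all GENCODE exon bases of a gene together, which can exceed the deposited transcript length.

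RPKM were transformed as log2(RPKM + 0.5), which understates folds of low genes. Genes averaging 1 RPKM or more over the 7 libraries (10498) were tested with limma 3.58.1 (trended prior) in R 4.3.3, in 1 fit of 3 groups, two-sided, with Benjamini-Hochberg adjustment over all tested genes and a threshold of 0.05. The script was tested on simulated data. Groups of 3 and 2 cannot go below p = 0.1 in an exact permutation test, so none was run.

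Per the labels the replicate number marks read length and instrument. Same-numbered libraries of different groups deviated together (r = 0.489 to 0.737 across genes), so a fit with the number as a replicate block (paired) stands beside the main one, with its values where it changes a call. The members and lists were chosen with earlier results of these data known. From 13 other lists, 124 genes, those named are the called genes and the 2 with the smallest p in ZnF4-/- against wild type, other genes being named for a stated reason and 2 of the called genes not being reported here; 5 symbols were matched by RefSeq accession. Alternatives tried were other scaling, pseudocounts, filters, priors, samples in the fit and left-out libraries.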

Additional observations from a re-analysis of the deposited data

How the results depend on the processing

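Each member's value in 3 comparisons was recomputed under 17 other settings and, for Lig4 and the count of members called in ZnF4-/- against wild type, under 7 that leave out a library with the block kept and were chosen after seeing the data. Of 30 values, 22 kept their direction under all of the 17 that gave a value. The count of members called in ZnF4-/- against wild type was 0 without the block and 1 (Lig4) with the replicate block, with median-centring, with quantile normalization and with no filter on low values (adjusted p = 0.0490). When single libraries were left out it was 0 without the block and 1 with it. For Lig4 the adjusted p over the 17 settings ran from 0.00251 with the block to 0.422 without ZnF4-/- replicate 1; where a mutant kept 1 library, that library was assumed to vary like the other groups. In the other comparisons 0 members were called under any of the 17, the block included, and in ZnF1-/- against wild type 1 (Lig4) and in ZnF4-/- against ZnF1-/- 0 had an unadjusted p under 0.05 in the fit without it.

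The 8 values that changed sign did not pass. Rag1 in ZnF1-/- was 0.016 under quantile normalization. When single libraries were left out, the values in ZnF1-/- against wild type ranged from -0.23 to 0.06 for Rag2, from -0.094 to 0.165 for Prkdc and from -0.152 to 0.212 for Xrcc6. In ZnF4-/- against wild type they ranged from -0.05 to 0.16 for Dntt, from -0.23 to 0.129 for Prkdc and from -0.123 to 0.000 for Xrcc4, and between the mutants from -0.266 to 0.093 for Prkdc. The cause was not tested. With a minimum of 5 RPKM, Prkdc and Nhej1 had no value. Over all genes the count called in ZnF4-/- against wild type was 267, and 863 with the block, 596 without a filter, 130 with wild type 2A and 2B averaged and 54 at a minimum of 5 RPKM. In ZnF1-/- it was 9, and 92 with the block. Depth is unknown for the 50 bp libraries and only roughly estimated for those numbered 1. At the level of Nhej1 the estimated counting error limits what replicate 1 can show.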
